A study of Mus musculus with 2 samples.

Results

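The genes described here are the ephrins and their Eph receptors, the Slits and their Robo receptors, and the netrins and their receptors Dcc and Unc5, in RNA-seq libraries from the ventricular and subventricular zone (VZ-SVZ) of the embryonic mouse cortex. Members were chosen by gene symbol alone, from the names of these families, and 38 of the 21896 genes in the files belong to them. They comprise 8 ephrins, 14 Eph receptors, 3 Slits, 4 Robos, 4 netrins, and Dcc with the 4 Unc5 receptors, which together make 15 ligands and 23 receptors. RNA of C57/BL6 embryos at E13.5 was sequenced from 2 genotypes. The control library came from Rcor2fl/fl embryos, which carry LoxP-flanked alleles of Rcor2, a corepressor of the LSD1 histone demethylase complex. The other library came from Rcor2cko embryos, in which a Nestin-Cre transgene (NesCre) deletes the flanked part of Rcor2. Nestin-Cre acts in neural progenitors, so their neuronal and glial progeny also carry the deletion, and it is not specific to the VZ-SVZ or to the cortex. By these genotype names the Rcor2fl/fl embryos lack the transgene, so Cre itself and the deletion cannot be told apart. How many embryos made up a library is not stated in the sources used here.

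Each genotype is represented by 1 library, so no difference below has a replicate check and no test across genotypes was made. Levels are given in FPKM, fragments scaled to transcript length and to the total of mapped fragments, which can be compared between genes because they are per length. A difference is given on the log2 scale, as the FPKM plus 0.1 of Rcor2cko divided by that of Rcor2fl/fl, so a negative value means lower in Rcor2cko. A gene was evaluated where it reached 1 FPKM in at least 1 library, and was called higher or lower where the ratio passed 1.5-fold.

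Ephrins and Eph receptors form the largest system of contact-dependent guidance cues. Ephrin-A ligands are tethered to the membrane by a lipid anchor and bind mainly EphA receptor tyrosine kinases, whereas ephrin-B ligands span the membrane, bind mainly EphB receptors and can signal back into their own cell. Slits are large secreted proteins that repel axons and migrating cells through Robo receptors. Netrins are laminin-related secreted proteins that attract through Dcc and repel through Unc5 receptors, alone or with Dcc. In the developing cortex these systems are known for the guidance of callosal, corticofugal and thalamocortical axons, for neuronal migration and for the behaviour of ventricular zone progenitors.

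The stretches just before the transcription start are shown for the members at the ends of the range of differences, Unc5a and Ntn4 at the high end and Ephb1 and Slit3 at the low end, so that the base composition of these genes can be seen. Each line holds the 250 bases before the start, 5′ to 3′ on the strand of the gene, from the RefSeq promoter table of GRCm38.p6. Its only exact match on that strand of its chromosome in NCBIM37, the mm9 build of the files, gives the position. Other chromosomes were not searched. Capitals mark every CG dinucleotide.
Unc5a, chr13:55050522-55050771, plus strand: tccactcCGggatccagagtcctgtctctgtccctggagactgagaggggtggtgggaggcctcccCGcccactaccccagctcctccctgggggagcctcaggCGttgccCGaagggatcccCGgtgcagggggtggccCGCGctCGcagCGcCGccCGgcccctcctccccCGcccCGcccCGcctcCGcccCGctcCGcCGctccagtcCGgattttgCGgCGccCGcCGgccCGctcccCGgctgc
Ntn4, chr10:93103544-93103793, plus strand: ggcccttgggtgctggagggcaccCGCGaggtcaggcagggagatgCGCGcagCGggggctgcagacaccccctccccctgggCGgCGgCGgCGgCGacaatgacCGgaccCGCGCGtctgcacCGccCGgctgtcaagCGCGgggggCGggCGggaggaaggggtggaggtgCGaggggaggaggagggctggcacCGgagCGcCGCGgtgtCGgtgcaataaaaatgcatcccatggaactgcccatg
Ephb1, chr9:102257024-102257273, minus strand: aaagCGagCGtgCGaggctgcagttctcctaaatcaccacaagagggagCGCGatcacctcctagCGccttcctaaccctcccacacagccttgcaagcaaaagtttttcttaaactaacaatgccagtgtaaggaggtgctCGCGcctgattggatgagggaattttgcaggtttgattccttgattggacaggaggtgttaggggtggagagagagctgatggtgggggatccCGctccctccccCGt
Slit3, chr11:34934708-34934957, plus strand: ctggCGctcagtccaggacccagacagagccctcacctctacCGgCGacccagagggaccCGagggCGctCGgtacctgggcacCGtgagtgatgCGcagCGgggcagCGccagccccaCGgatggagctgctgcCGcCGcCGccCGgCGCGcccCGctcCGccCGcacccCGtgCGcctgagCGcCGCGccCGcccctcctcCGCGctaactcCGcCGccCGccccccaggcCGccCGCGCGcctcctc

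These windows hold 25 CG dinucleotides in Unc5a, 26 in Ntn4, 35 in Slit3 and 10 in Ephb1, with a GC content of 76.8%, 73.2%, 78.8% and 54% in the same order. Both ends of the range therefore include CG-rich windows, and the Ephb1 window is the poorest of the 4. The windows end at the RefSeq start. GENCODE vM1 starts Slit3 at base 34934726, so by that annotation most of the Slit3 window lies inside the gene. The table held 38 windows for 33 members, and none for Dcc, Efnb3, Ntn1, Slit1 and Unc5d. Over the member windows the median was 16.5 CG dinucleotides and 65.2% GC, beside 6 and 52.4% over 32851 windows of the same length from all genes. The homeodomain-type motif TAATTA, which is its own reverse complement, occurred in 3 member windows (Efna1, Epha5 and Robo3), or 7.89%, beside 4.84% of all windows. The related motif TAATTG, searched on both strands, occurred in 2 (Epha7 and Robo2), or 5.26%, beside 7.17% of all windows. A match in a window is a description of its letters and not a binding site.

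The fragment totals that scale the FPKM values, recovered from the files, were 18841684 for Rcor2fl/fl and 25479853 for Rcor2cko. Whole-gene Rcor2, which includes exons outside the flanked part, was at 90.6 and 55.7 FPKM, a log2 difference of -0.70. As a check of the labelled tissue, the 16 listed markers of cortical VZ-SVZ progenitors were all above 1 FPKM and summed to 1319 and 1390 FPKM. Of these 16, 5 lay above 0 and 11 below, with a median log2 difference of -0.14. Emx2 was called lower at 21.5 and 13.9 FPKM, and Fabp7, at 372 and 539 FPKM, differed by more than the sum did. The 11 neuronal markers in the files summed to 1848 and 1779. None of these 11 was called, and 5 lay above 0 and 6 below, with a median log2 difference of -0.04. They ranged from -0.49 in Fezf2, at 76.6 and 54.5 FPKM, to 0.26 in Bcl11b, at 35.0 and 42.0 FPKM. Markers of several other cell types differed between the libraries. Of 16 ventral telencephalic markers 14 were evaluated and 11 were called higher in Rcor2cko, with a sum of 51.8 and 101 FPKM. All 7 evaluated of 12 Cajal-Retzius and cortical hem markers were called lower, with a sum of 54.0 and 22.2 FPKM, and the 9 choroid plexus markers summed to 1.05 and 62.1 FPKM, of which Ttr was listed at 0 and at 57.8. None of 13 evaluated endothelial and pericyte markers was called, and of 9 evaluated microglial markers 4 were called higher and 1 lower. Blood markers summed to 344 and 255 FPKM, with Hbb-b1 called lower among 6 evaluated. The only meningeal marker evaluated, Zic1, was lower at 5.52 and 1.69 FPKM. The 8 meningeal markers under 1 FPKM lay on both sides of 0, so this list gives no direction. Among them Col1a2 was at 0.257 and 0.580 FPKM and Dcn at 0.533 and 0.0985. Xist was at 177 and 0.109 FPKM and the Y-linked Ddx3y at 0.0239 and 8.10, so embryo sex and genotype cannot be told apart. In bulk RNA, fewer cells of a type and less RNA per cell cannot be told apart, and the part of these shifts in the values below was not tested.

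Of the 38 guidance genes, 27 were evaluated and 11 stayed under 1 FPKM in both libraries. Only Unc5a, a repulsive netrin receptor, passed 1.5-fold, and it was higher in Rcor2cko. That is 1 of 27, or 3.7%, beside 3.79% of all 11777 genes evaluated. No member was called lower, beside 1.76% of all genes. The counts thus lie near the background in both directions. The evaluated members had a median log2 difference of 0.02 (SD 0.31 across the 27 genes, range -0.52 to 0.70), beside -0.03 over all genes, and 14 lay above 0 and 13 below. That is 51.9% above 0, beside 42.4% of all genes, so genes at large lay more often below 0. Summed over the 38 genes the level was 452 FPKM in Rcor2fl/fl and 449 in Rcor2cko. Ligands summed to 171 and 176.5 FPKM and receptors to 281 and 272.

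The median absolute log2 difference of the members was 0.21, beside 0.12 over all genes evaluated and 0.22 over 26 semaphorins, plexins and neuropilins. The SD went the other way, at 0.31 over the members and 0.45 over all genes. Among genes at 5 FPKM or more in at least 1 library the values were 0.24 over 20 members and 0.11 over 8737 genes. These medians are descriptions of a pair of libraries and call nothing particular to the families.

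**Figure D1:**
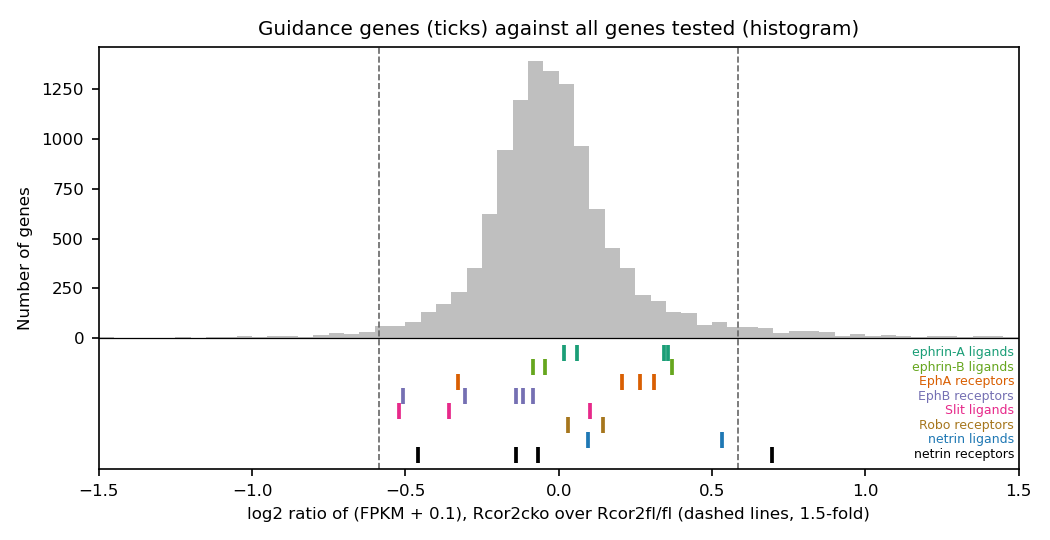
The histogram counts all genes evaluated by their difference (x axis, log2 of FPKM plus 0.1 in Rcor2cko divided by the same in Rcor2fl/fl; y axis, number of genes; 99 of 11777 genes lie beyond the axis), and each tick below it is 1 guidance gene, in a row and colour for its class. Dashed lines mark 1.5-fold; of the 27 ticks only that of Unc5a, at 0.70, lies outside them, and the 5 EphB ticks all lie below 0.

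How far sequencing depth limited these differences was read from fragment numbers, recovered from the FPKM steps for the 32 members with 1 transcript row per gene. The evaluated members among them, 22 in number, had a median of 959.5 fragments in Rcor2fl/fl and 1519.5 in Rcor2cko. The exact 95% interval of the log2 ratio, taken without the pseudocount, lay above 0 for 7 of them (31.8%, beside 14.0% of 8460 genes with fragments), below 0 for 6 (27.3%, beside 23.2%), and included 0 for 9. For 18 of the 22 (81.8%, beside 82.1% of the 8460 genes) the whole interval lay within 1.5-fold either way. Ntn3 is among these 18, though it shares exonic bases with another gene on the same strand. Its 95% FPKM intervals in the files were wide, at 1.12 to 2.72 in Rcor2fl/fl and 1.26 to 2.85 in Rcor2cko. The exact intervals cover counting error only, not the spread between embryos, and are wider for genes with few fragments. Over the 8460 genes the median was 510.5 fragments in Rcor2fl/fl and 678 in Rcor2cko, fewer than for the members. The shares of intervals that exclude 0 are therefore not compared at equal depth.

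**Figure D2:**
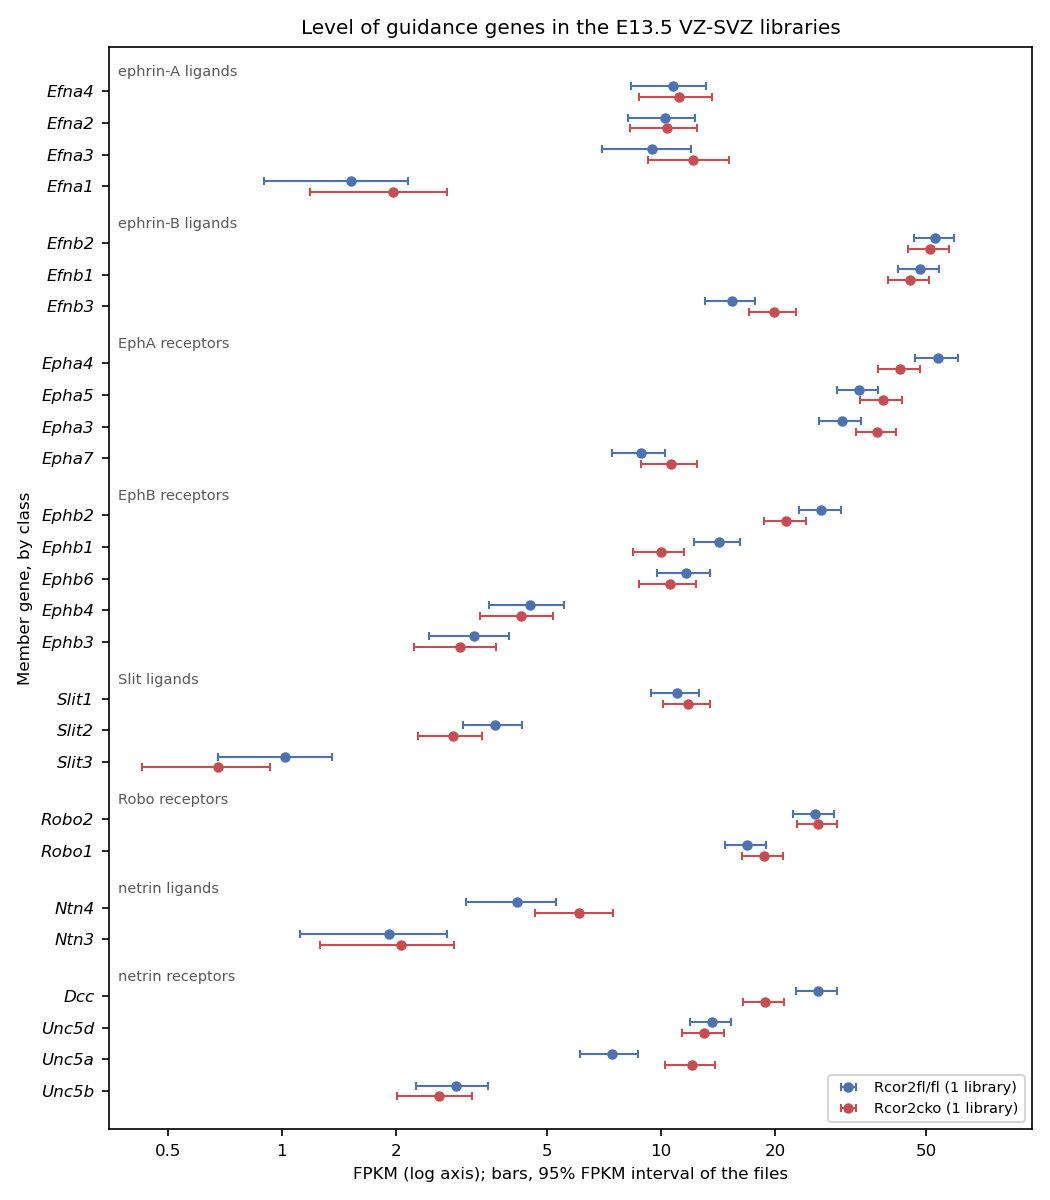
FPKM of the 27 evaluated guidance genes (x axis, log scale) for Rcor2fl/fl (blue) and Rcor2cko (red), grouped by class, with 1 library per genotype. Bars are the 95% FPKM intervals given in the files. For genes with more than 1 transcript row the Rcor2fl/fl bar combines the intervals of the rows. The bars of the libraries are apart for Unc5a, which is higher in Rcor2cko, and for Ephb1 and Dcc, which are lower.

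The ephrin-B ligands were the most abundant ligands, and their summed level was 116 FPKM in both libraries. Efnb2, a ligand of EphB receptors and EphA4, was at 52.8 FPKM in Rcor2fl/fl and 51.2 in Rcor2cko, from 4104 and 5369 fragments, and its log2 difference of -0.05 had an interval of -0.10 to 0.01. Efnb1 was at 48.1 and 45.3 FPKM, a difference of -0.08 (interval -0.16 to -0.01). Both intervals lay wholly inside 1.5-fold. Efnb1 lies on the X chromosome, and the libraries differ in embryo sex by Xist and Ddx3y, whose part in this value was not tested. Efnb3, a midline cue for corticospinal axons, was at 15.4 and 19.9 FPKM, a difference of 0.37 (interval 0.25 to 0.49). It was the only ephrin-B ligand whose interval lay above 0, and its share of summed ephrin-B FPKM was 13.2% and 17.1%.

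All 4 evaluated ephrin-A ligands had log2 differences above 0, beside 42.4% of all genes, and none passed 1.5-fold. Efna4 was at 10.7 and 11.2 FPKM (difference 0.06, interval -0.16 to 0.29) and Efna2 at 10.2 and 10.4 (difference 0.02, interval -0.18 to 0.21). For both, any difference was within counting error. Efna3 was at 9.47 and 12.1 FPKM, from 184 and 317 fragments, and its difference of 0.36 had an interval of 0.09 to 0.63, which reaches past 1.5-fold. Efna3 shares 344 exonic bases with a gene on the opposite strand, and Efna4 shares 168. Efna1 was at 1.52 and 1.96 FPKM (difference 0.34, without fragment numbers because it has 2 transcript rows). Efna5, which patterns topographic projections together with Efna2, was below the level for evaluation at 0.745 and 0.414 FPKM. Efna1, Efna3 and Efna4 are neighbours on chromosome 3, with 32.8 kb between the first pair and 10.4 kb between the second.

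The EphA receptors had nearly the same summed level in both libraries, 127 and 130 FPKM, but their members lay on both sides of 0. Epha4, which binds ligands of both ephrin classes, was the most abundant member of all in the Rcor2fl/fl library at 53.6 FPKM and stood at 42.7 in Rcor2cko, from 6189 and 6660 fragments. Its log2 difference was -0.33 (interval -0.38 to -0.28). The other evaluated members lay on the other side. Epha5 was at 33.2 and 38.3 FPKM (difference 0.21, interval 0.15 to 0.26), Epha3 at 29.9 and 37.1 (difference 0.31, interval 0.23 to 0.39) and Epha7 at 8.82 and 10.6 (difference 0.27, 2 transcript rows). Epha4 made up 42.2% of summed EphA FPKM in Rcor2fl/fl and 32.9% in Rcor2cko, and Epha3 made up 23.6% and 28.6%. The ratio of Epha3 to Epha4 was 0.558 and 0.870.

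All 5 EphB receptors, which bind the ephrin-B ligands, were lower in Rcor2cko by value, and none passed 1.5-fold. Of all genes, 6785 of 11777 also lay below 0. Ephb2 was at 26.4 and 21.4 FPKM, from 2284 and 2494 fragments, a log2 difference of -0.31 (interval -0.39 to -0.22). Ephb1, a receptor in axon midline decisions, was at 14.2 and 9.96 FPKM, a difference of -0.51, and the 95% FPKM intervals of the files were apart. The remaining 3 differed less. Ephb6, which lacks kinase activity, was at 11.6 and 10.5 FPKM (difference -0.14), Ephb4, best known from the endothelium of veins, at 4.52 and 4.26 (difference -0.08), and Ephb3 at 3.21 and 2.96 (difference -0.12, interval -0.37 to 0.13). The class summed to 60.0 and 49.1 FPKM, a log2 difference of -0.29, against the equal sums of 116 FPKM of the ephrin-B ligands. Ephb1 overlaps a predicted gene on the opposite strand by 152 exonic bases, and whether strand was used in the quantification is not stated in the sources used here.

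**Figure D3:**
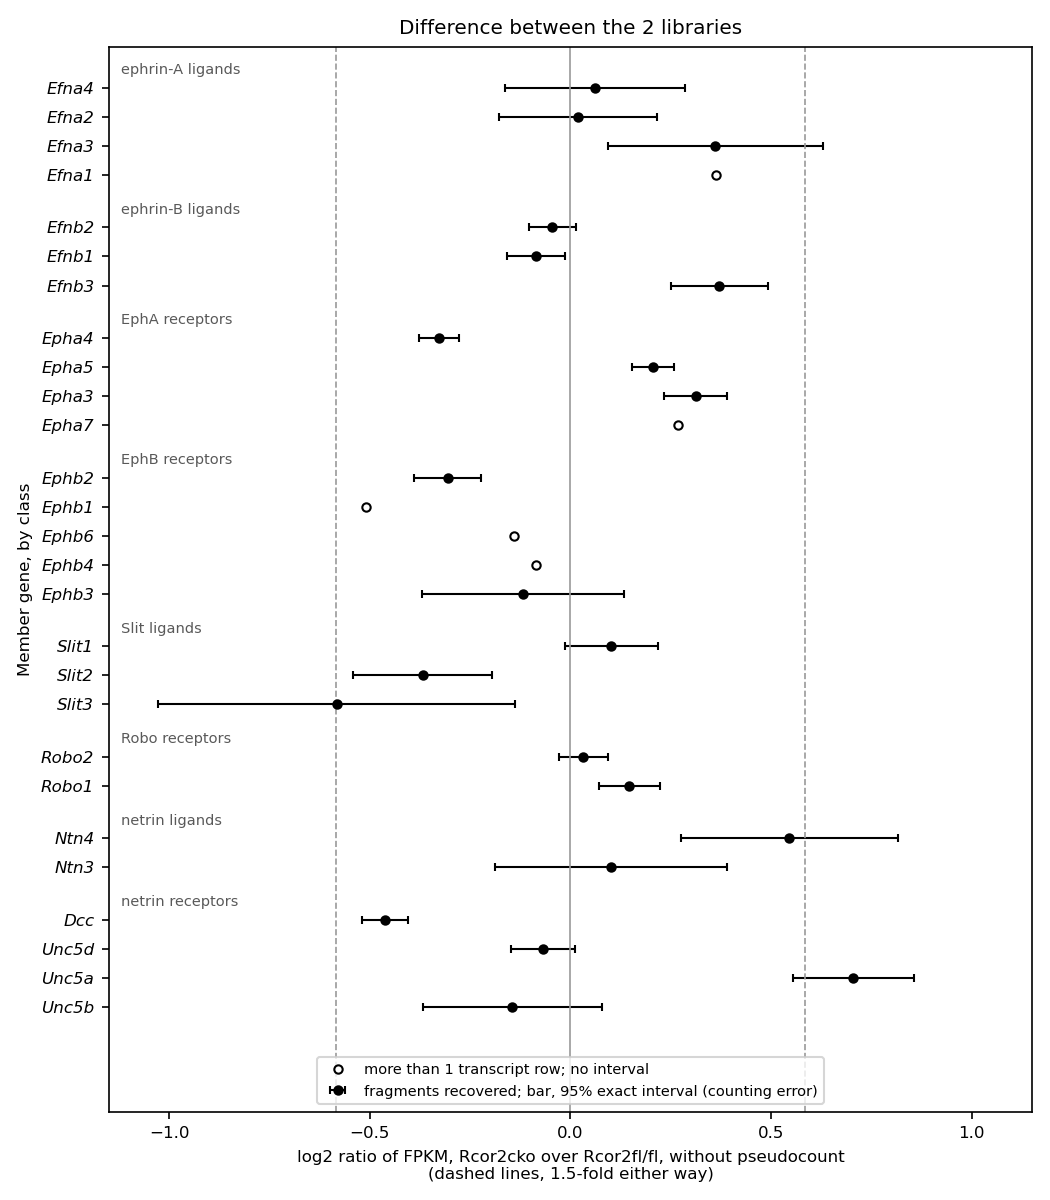
Difference on the log2 scale (x axis, FPKM of Rcor2cko divided by FPKM of Rcor2fl/fl, no pseudocount) for the 27 evaluated guidance genes by class; filled points carry the exact 95% interval of recovered fragments (counting error only), and open points are genes with more than 1 transcript row and no interval. Dashed lines mark 1.5-fold: Unc5a lies beyond the upper line with an interval that crosses it (0.55 to 0.86), and the interval of Slit3 (-1.03 to -0.14) is the widest.

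The Slit ligands differed from each other, while their Robo receptors were close in both libraries. Slit1, the most abundant Slit, was at 11.0 and 11.8 FPKM (log2 difference 0.10, interval -0.01 to 0.22). Slit2, a repellent of commissural and corticofugal axons, was at 3.65 and 2.83 FPKM, from 536 and 561 fragments (difference -0.36, interval -0.54 to -0.19). Slit3 was at 1.02 and 0.679 FPKM, from 92 and 83 fragments, and its difference of -0.52 was the lowest of the evaluated members. Its interval of -1.03 to -0.14 shows how little 92 fragments constrain the size. Slit1 made up 70.2% and 77.1% of summed Slit FPKM, and the class summed to 15.7 and 15.3 FPKM.

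Among the Robos, Robo2 was at 25.4 and 25.9 FPKM, from 3755 and 5186 fragments, and its log2 difference of 0.03 had an interval of -0.03 to 0.09. Robo1, which acts with Robo2 in cortical axon guidance and progenitor behaviour, was at 16.8 and 18.6 FPKM (difference 0.15, interval 0.07 to 0.22). Both intervals lay wholly inside 1.5-fold. The other Robos were under 1 FPKM in both libraries, and endothelial and pericyte markers summed to 51.0 and 58.7 FPKM. Robo3, which acts in hindbrain and spinal cord commissural neurons, was at 0.539 and 0.677 FPKM, and Robo4, an endothelial receptor, at 0.881 and 0.956. Robo3 and Robo4 are 1.65 kb apart on chromosome 9, and Robo1 and Robo2 lie 846 kb apart on chromosome 16.

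The netrin receptors included the member past 1.5-fold and members that differed in opposite directions, Unc5a and Dcc. Unc5a was at 7.40 FPKM in Rcor2fl/fl and 12.1 in Rcor2cko, from 527 and 1159 fragments. Its log2 difference of 0.70, or 1.62-fold, lay at the 97.2nd percentile of all genes evaluated. The 95% FPKM intervals of the files, 6.09 to 8.71 and 10.2 to 13.9, were apart, as they were for 2.26% of all genes in this direction. The exact interval of 0.55 to 0.86 includes 1.5-fold, so the size is at the edge of the threshold. Unc5a shares 34 exonic bases with Hk3 on the opposite strand, and Hk3 was at 0.125 and 0.331 FPKM, from 7 and 25 fragments.

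Dcc, the attractive netrin receptor, was at 25.9 and 18.8 FPKM, from 4935 and 4841 fragments, a log2 difference of -0.46 (interval -0.52 to -0.40). It did not pass 1.5-fold, but the 95% FPKM intervals of the files were apart, as for Ephb1 and for 1.21% of all genes in this direction. The interval from fragments lay wholly inside 1.5-fold, which limits the size of the difference between these libraries. Unc5d, a receptor known from upper-layer precursors in the SVZ, was at 13.6 and 13.0 FPKM (difference -0.07, interval -0.15 to 0.01), and Unc5b, which also acts in vessels, at 2.87 and 2.60 (difference -0.14, interval -0.37 to 0.08). Unc5c stayed under 1 FPKM at 0.717 and 0.867. The ratio of Dcc to Unc5a was therefore 3.49 in Rcor2fl/fl and 1.56 in Rcor2cko, and that of Unc5a to Unc5d 0.543 and 0.928. Dcc made up 51.2% and 39.7% of the summed receptor FPKM and Unc5a 14.7% and 25.5%.

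**Figure D4:**
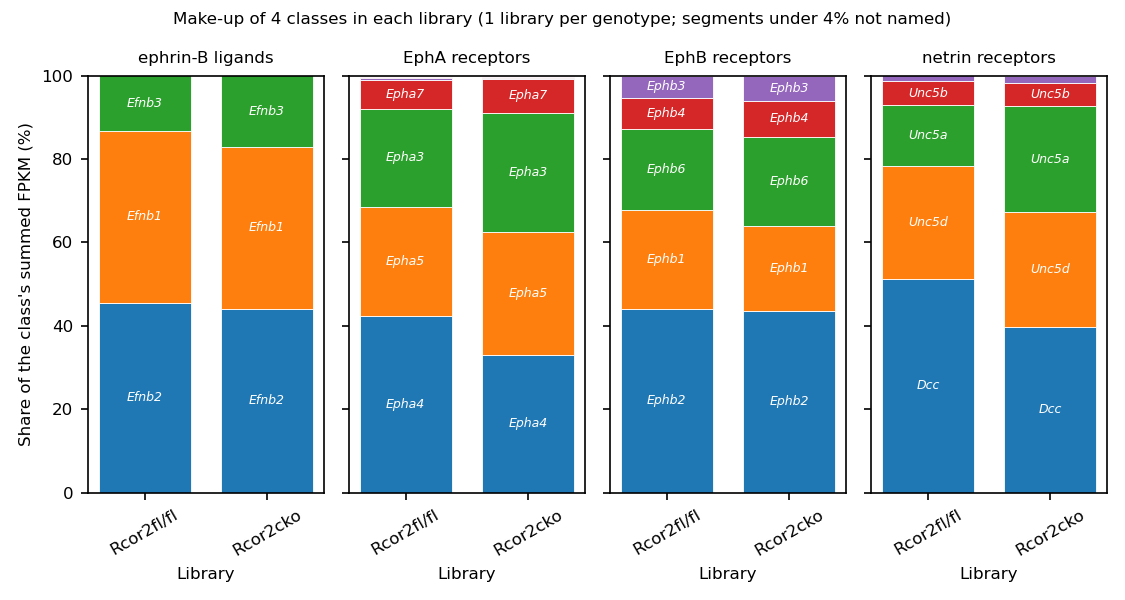
Share of each class's summed FPKM held by its members (y axis, percent; x axis, library, 1 per genotype) in 4 classes; segments under 4% are not named. Dcc takes 51.2% of the netrin receptors in Rcor2fl/fl and 39.7% in Rcor2cko, Unc5a 14.7% and 25.5%, and Epha4 42.2% and 32.9% of the EphA receptors.

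Netrin ligands were low in both libraries, with sums of 6.49 and 8.80 FPKM. Ntn4, a netrin that binds laminins in basement membranes, made up most of this, at 4.17 and 6.07 FPKM from 174 and 342 fragments. Its log2 difference of 0.53 (interval 0.28 to 0.82) was the second highest of the evaluated members and below 1.5-fold. Ntn3 was at 1.92 and 2.06 FPKM (difference 0.10, interval -0.19 to 0.39), and it shares 89 exonic bases on the same strand with Tbc1d24, at 11.9 and 10.1 FPKM, so its level is uncertain. Ntn1, the principal ligand of Dcc, was below the level for evaluation at 0.364 and 0.666 FPKM, from 38 and 94 fragments, with an interval of the log2 ratio of 0.32 to 1.46. Ntn1 shares 127 exonic bases on the same strand with another annotated gene, so its level is uncertain too. Ntn5 was at 0.0385 FPKM, or 1 fragment, and at 0.

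The 11 members under 1 FPKM were between 0.0385 and 0.881 FPKM in Rcor2fl/fl and between 0 and 0.956 in Rcor2cko. They were Efna5, 5 EphA receptors (Epha1, Epha2, Epha6, Epha8 and Epha10), Robo3, Robo4, Ntn1, Ntn5 and Unc5c. Among those with fragment numbers the range was 1 to 123 fragments in Rcor2fl/fl and 0 to 201 in Rcor2cko. By value 4 were higher and 7 lower in Rcor2cko, with log2 differences of -0.72 (Efna5) to 0.72 (Ntn1). At this depth 3 fragments of a transcript of 5000 nucleotides are worth 0.0331 FPKM in Rcor2fl/fl and 0.0245 in Rcor2cko, and more for a shorter transcript. Epha1 (3273 nucleotides) had 4 fragments in each library, near this limit of 3 fragments. Epha10 (1236 nucleotides), with 1 fragment in each library, and Ntn5 (1574 nucleotides), with 1 and 0, lay below it.

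In the order of levels, Rcor2fl/fl ran Epha4, Efnb2, Efnb1, Epha5, Epha3, Ephb2, Dcc and Robo2, and Rcor2cko ran Efnb2, Efnb1, Epha4, Epha5, Epha3, Robo2, Ephb2 and Efnb3, with Dcc ninth. Of 26 neighbouring pairs in the order, 23 in Rcor2fl/fl and 22 in Rcor2cko had overlapping 95% FPKM intervals, so most adjacent ranks were not separated. The intervals were apart between Efnb1 and Epha5, Robo2 and Robo1, and Unc5a and Ephb4 in Rcor2fl/fl. In Rcor2cko they were apart between Epha3 and Robo2, Robo1 and Unc5d, Ephb1 and Ntn4, and Efna1 and Slit3. A level of 10 FPKM was reached by 16 members in Rcor2fl/fl and 18 in Rcor2cko.

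Transcript levels were read from the Rcor2fl/fl library, whose rows are per transcript, and 6 members had more than 1 row. Epha7 was divided between a transcript of 6732 nucleotides at 6.45 FPKM (73.1% of the gene) and one of 3272 nucleotides at 2.37 FPKM (26.9%). Epha7 is known to have short isoforms without the kinase domain, and which isoform each row encodes was not examined. In Ephb4 and Ephb6 the leading transcript held 85.2% and 94.5%, and in Efna1, Efna5 and Ephb1 the second was listed at 0. The Rcor2cko rows are per gene, so transcripts were not compared between genotypes.

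Genes that modify or transmit these signals were read from lists beside the families. Of 28 co-receptors and modifiers 27 were in the files and 24 evaluated, with 1 higher (4.17%, beside 3.79% of all genes), 1 lower (beside 1.76% of all genes) and a median log2 difference of -0.03. Lphn3, an adhesion receptor that binds FLRT proteins and teneurins, was at 3.69 and 7.85 FPKM, from 391 and 1122 fragments (difference 1.07, interval of the ratio 0.92 to 1.26). Flrt3, which binds Unc5 receptors and Robo1, was at 20.4 and 13.2 FPKM (difference -0.63). The Dcc-related receptor Neo1 (36.5 and 44.7 FPKM) and the receptor Dscam (10.3 and 7.37) did not pass 1.5-fold. The interval of the ratio for Dscam, -0.60 to -0.38, reaches past 1.5-fold. Of 49 cytoplasmic effectors 46 were evaluated, with 1 higher (2.17%, beside 3.79%), none lower and a median of -0.05. The one was Chn2, a Rac GTPase-activating chimaerin, at 7.40 and 12.6 FPKM (difference 0.76). Among the 31 semaphorins, plexins and neuropilins, the remaining large guidance system, 26 were evaluated, 3 were higher (Plxna4, Plxnc1 and Plxnd1; 11.5%, beside 3.79%), none was lower and the median was 0.04. The ephrin, Slit-Robo and netrin genes had 1 higher of 27, and the difference between these counts was not tested.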

How the data were processed

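RNA of the dissected VZ-SVZ was isolated with a column kit and made into stranded mRNA libraries, per the labels. The submitters' processing notes name TopHat 1.3.3, Cufflinks 1.2.0 and mm9, and the study's methods name a later TopHat release. The authors deposited FPKM values with 95% intervals, per RefSeq transcript for Rcor2fl/fl (27641 rows) and per gene for Rcor2cko (21896 rows), so transcript rows were summed per gene, and the files were made separately. The intervals of summed genes were combined as root sums of squares. Groups came from the genotype label. The 1 library per genotype allows no test, so differences were given as log2 ratios with a pseudocount of 0.1 FPKM, for genes at 1 FPKM or more in at least 1 library, and called above 1.5-fold.

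Where a gene had 1 transcript of at least 1000 nucleotides, fragments were recovered from the FPKM steps. Of values up to 100 fragments, 99.3% of 4015 in Rcor2fl/fl and 99.4% of 3959 in Rcor2cko were within 0.1 of a whole number, as were 20 of 20 such values of members. Exact Clopper-Pearson intervals (95%, two-sided) of the ratio come from these fragments and cover counting error only. The recovery, the calls and the intervals were run on simulated libraries with counting error only. All 200 changed genes were called, as were 24 of 8132 unchanged genes. The changes were set at 2-fold or more, above any difference of an evaluated member, and the intervals used the true totals. The simulation therefore does not show how smaller differences or the spread between embryos behave. Python 3.11.15 with numpy 2.4.6, pandas 2.3.3, scipy 1.17.1 and matplotlib 3.10.9 was used.

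The members, the lists of other genes and markers, and the choice to name every evaluated member were made with earlier results of these data known. Positions came from GENCODE vM1 on NCBIM37, and 38 of 38 members were found there. Libraries of other stages and chromatin data were not analysed here. Alternatives changed the pseudocount, the filter, the scaling, the fold and the transcript rows.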

Additional observations from a re-analysis of the deposited data

How the results depend on the processing

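Unc5a was the only member called higher, and no member was called lower, with a pseudocount of 1 or 0.01 FPKM, with a minimum of 1 FPKM in both libraries or 5 in at least 1, after median or upper-quartile scaling, with the intervals of the files required to be apart, and with only genes of 1 transcript row or status OK. With no filter 2 members were higher (Ntn1 and Unc5a) and 1 was lower (Efna5), of which Ntn1 and Efna5 stayed under 1 FPKM in both libraries. Above 2-fold 0 members were higher and 0 lower. The median log2 difference of the members was 0.02, and ranged from -0.06 with no filter, which turned its sign, to 0.05 after median scaling. Median scaling moved log2 differences upward by about 0.035 and turned no member's direction. No paired analysis was possible because each genotype has 1 library. Leaving out a library was not possible for the same reason.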
